A study of Mus musculus with 86 samples.

Results

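CAD cells are a mouse line of neuronal origin that puts out neurites when serum is withdrawn. The results below concern the neurite RNA of CAD cells that express a transgene for TDP-43 carrying the ALS-linked mutation Q331K, compared with CAD cells that express a transgene for wild-type TDP-43. The libraries were chosen by their sample labels, and 6 of the 86 samples of the series belong to the comparison, with 3 neurite libraries for each transgene. The 6 soma libraries of the same lines entered the same model. In both lines an HA-tagged TDP-43 transgene was integrated at a single genomic site and driven by a doxycycline-inducible promoter with a synthetic 3′ UTR, and the endogenous Tardbp alleles were left in place. From immunoblots, the paper reports that inducing the transgene lowered endogenous TDP-43 and left total TDP-43 about as in uninduced cells. Doxycycline was present for 7 days at 1 μg/ml in both lines, and neurites grew through membrane pores of 1 μm, which allowed them to be collected apart from cell bodies. Polyadenylated RNA was sequenced. There is 1 line for each transgene, so the mutation and other differences between the lines cannot be told apart.

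TDP-43 is an RNA-binding protein of the nucleus and cytoplasm that recognises GU-rich RNA and acts in splicing, RNA stability and RNA transport. It is lost from the nucleus and aggregates in the cytoplasm of affected neurons in most ALS. The Q331K mutation lies in its C-terminal low-complexity domain, outside its RNA recognition motifs.

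The neurite libraries held between 12595863 and 15445189 estimated counts. Neuronal markers were present in the neurites, with Snap25, Tubb3, Map1b and Stmn2 among the 9 of 12 that passed the filter on low counts. Nefl, Nefm and Dcx, also neuronal markers, were at or near 0 in both lines. The summed level of 7 microglial markers was at most 1.43 CPM (counts scaled to a common library total) in any neurite library, that of 6 endothelial markers at most 7.79 CPM, that of 7 fibroblast markers at most 19.5 CPM and that of 6 astrocyte markers at most 21.6 CPM. The largest axis of variation among the 12 libraries, with 47.95% of the variance, separated neurites from soma. The lines were much closer to each other. In neurites the median correlation of log2 CPM across genes was 0.9805 between libraries of the same line and 0.9798 between lines, and 3 of the 6 neurite libraries had their nearest neighbour in their own group.

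Tardbp itself stood at 863, 843 and 705 CPM with the wild-type transgene and at 875, 833 and 834 CPM with Q331K, and the groups overlapped. The log2 change, Q331K against wild type, was 0.08 ± 0.09 (SE, n = 3 libraries per line), with a 95% interval of -0.11 to 0.26 and an adjusted p of 0.827 in edgeR. Reads from the coding sequence of the transgenes may have been counted in this gene and cannot be told apart from endogenous RNA here.

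No single gene passed the test between Q331K and wild-type neurites. Of 13940 genes tested with edgeR's quasi-likelihood test, 0 (0.0%) reached a Benjamini-Hochberg FDR of 0.01, 0 reached 0.05, and the lowest adjusted p was 0.080. At an unadjusted p under 0.05, 689 genes were higher with Q331K (4.94%) and 683 lower (4.9%). The 3 libraries of each line did not overlap for 975 genes in the upward direction (6.99%) and 952 in the downward direction (6.83%). The changes were also small. The median size of the log2 change was 0.12 over all tested genes, and among the 10603 genes with a mean of at least 5 CPM in the higher group 22 differed by over 1 on the log2 scale. Of these 22, 17 were pseudogenes, predicted genes or ribosomal protein genes, whose reads can be shared with near-identical copies. The other 5 were Btg3, mt-Atp8, Pagr1a, Sdc3 and Yy2.

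**Figure D1:**
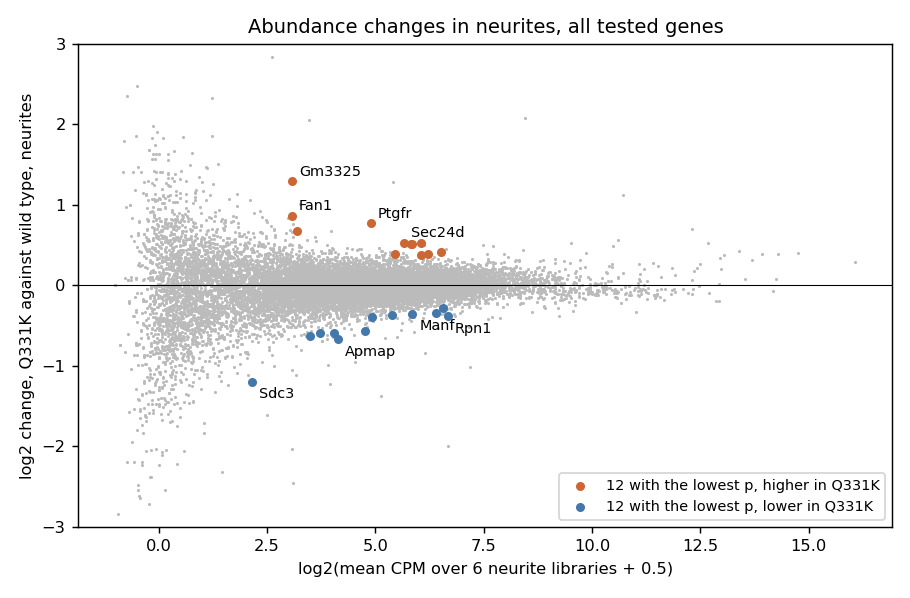
Log2 change in neurites, Q331K against wild type (vertical axis), against log2 of the mean CPM plus 0.5 over the 6 neurite libraries (horizontal axis), with 1 grey point per tested gene and 28 genes beyond the vertical limits. Colored points mark the 12 genes with the lowest p in each direction among those with at least 5 CPM and groups that did not overlap; none passed an FDR of 0.01 in edgeR, and most genes lie close to 0.

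A second count test placed a few genes past the threshold. DESeq2 called 10 of the 13940 genes (0.0717%) at an FDR of 0.01, 8 higher and 2 lower in Q331K neurites, and 28 and 19 at an FDR of 0.05. All genes named in the next paragraphs were selected after their values were seen, since the naming rule left only Tardbp and the TDP-43 target genes described further on.

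Sec24d, a cargo-binding subunit of the COPII coat that carries proteins out of the endoplasmic reticulum (ER), stood at 39.5, 37.5 and 45.4 CPM in wild-type neurites and at 61.9, 54.4 and 60.8 CPM in Q331K neurites. The groups did not overlap. Its log2 change was 0.53 ± 0.09 (SE), with an adjusted p of 0.080 in edgeR and 0.000935 in DESeq2, and its change in soma was 0.44. Ptgfr, the receptor for prostaglandin F2α, stood at 19.3, 20.7 and 24.6 CPM against 30.9, 35.3 and 44.3 CPM, again without overlap. Its log2 change was 0.77 ± 0.14, with an adjusted p of 0.104 in edgeR and 0.000935 in DESeq2.

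Egln3, a prolyl hydroxylase that marks hypoxia-inducible factor for degradation, was tightly grouped at 46.3, 45.5 and 47.7 CPM in wild-type neurites and at 68.5, 63.2 and 67.4 CPM with Q331K. Nos1, the neuronal nitric oxide synthase, was the most abundant of the 10, with 586, 510.5 and 698 CPM against 799, 777 and 999.6 CPM. In both genes every Q331K library was above every wild-type library. DESeq2 gave an adjusted p of 0.00585 for each, and edgeR gave 0.139 for Egln3 and 0.193 for Nos1. Ankfy1, an endosomal protein, and Mindy2, a deubiquitinase, had log2 changes of 0.39 ± 0.07 and 0.51 ± 0.10 and passed in DESeq2 only. The 2 remaining higher genes are uncertain. Gm3325 is a transcribed processed pseudogene whose reads may belong to a parent gene, and Ptges3-ps, also a pseudogene, had counts in only 1 of the 6 neurite libraries.

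The 2 genes that DESeq2 called lower were Apmap and Sdc3. Apmap, a membrane glycoprotein, stood at 20.5, 23.8 and 18.8 CPM in wild-type neurites and at 12.7, 15.04 and 11.95 CPM with Q331K. Its log2 change in neurites was -0.67 ± 0.11, whereas in soma it was -0.06, and its difference between compartments of -0.61 did not pass adjustment in edgeR (unadjusted p = 0.000923). Sdc3, a heparan sulfate proteoglycan of the neuronal surface, stood at 5.28, 6.67 and 4.65 CPM against 2.79, 2.40 and 2.01 CPM. Both genes were separated in neurites without overlap, and edgeR gave adjusted p-values of 0.080 for Apmap and 0.139 for Sdc3.

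The next question was whether RNAs that respond to loss of TDP-43 changed in abundance within Q331K neurites. The paper used another measure, neurite enrichment relative to soma. It reports that RNAs gaining enrichment with Q331K were in general those gaining it after knockout, with a more modest effect. The neurite values below do not repeat that comparison. The knockout values are from neurites of a conditional knockout CAD line, a separate experiment that shares no library with the transgene lines. Unlike the transgene lines, which both received doxycycline, this line had it in the knockout libraries and not in the wild-type libraries. Per the paper, doxycycline was present there for a shorter time than the 7 days of the transgene lines. TDP-43 loss and doxycycline cannot be told apart in it. There the same edgeR settings called 2041 genes higher (11.8%) and 2344 lower (13.5%) of 17343 after TDP-43 loss. The files of the conditional line list 135181 transcripts and those of the transgene lines 133618, so the transcript sets behind a gene can differ between the experiments. The oligos of a reporter assay elsewhere in the series carry the names of 16 genes in the deposited tables, tiling their 3′ UTRs, and these genes include 9 that were called higher and 3 called lower in knockout neurites. Those genes had been selected on knockout RNA, so their knockout values are a description.

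In Q331K neurites the 16 genes had a median log2 change of 0.11, against 2.66 in knockout neurites and -0.01 over all tested genes in Q331K neurites. Without Q331K neurite library 3 the median was -0.0028 and without wild-type neurite library 1 it was 0.028, so its sign rested on 1 library. In the difference between neurites and soma the 16 genes had a median of 0.07, with 9 above 0 and 7 below, beside 0.01 over all tested genes. Diras1, a small Ras-family GTPase, stood at 7.82, 8.40 and 8.24 CPM with wild-type and at 8.62, 11.3 and 6.81 CPM with Q331K. Ksr2, a scaffold of the MAP kinase cascade, stood at 14.5, 12.9 and 16.6 CPM against 14.2, 16.2 and 17.5 CPM. Wasf3, a WAVE-family activator of actin nucleation, stood at 26.1, 25.0 and 35.6 CPM against 30.7, 25.9 and 37.3 CPM. The groups overlapped for all 3 genes.

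The 95% intervals of these changes lay far below the changes after knockout. The log2 change of Diras1 was 0.12, with a 95% interval of -0.24 to 0.48, where the knockout change was 6.17. For Ksr2 the change was 0.12, with an interval of -0.15 to 0.38, where the knockout change was 4.33. For Wasf3 it was 0.11, with an interval of -0.18 to 0.41, where the knockout change was 5.53. Fam160b2 had a change of -0.14, with an interval of -0.49 to 0.21 against a knockout change of 6.06, and Kank2 one of 0.06, with an interval of -0.19 to 0.31 against 3.86.

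A further 3 targets were lower with Q331K, the direction opposite to knockout, without passing adjustment in edgeR. Spock2, a secreted proteoglycan, stood at 79.6, 66.5 and 88.2 CPM in wild-type neurites and at 61.4, 57.4 and 58.5 CPM in Q331K neurites. Fam219a stood at 29.8, 28.5 and 32.4 CPM against 23.7, 25.5 and 21.4 CPM, and Lrrc47 at 24.2, 23.1 and 28.4 CPM against 21.1, 21.1 and 17.02 CPM. None of these 3 genes overlapped between the lines, where 6.83% of all genes did not overlap in the downward direction. Their log2 changes were -0.40 ± 0.09, -0.36 ± 0.11 and -0.35 ± 0.13, with adjusted p-values of 0.193, 0.300 and 0.376 in edgeR, beside knockout changes of 2.95, 2.91 and 3.59. DESeq2 gave Spock2 an adjusted p of 0.024. Among the other tiled genes, Kcnj12, an inward-rectifier potassium channel, was higher in every Q331K library with a change of 0.30 ± 0.15, and Synj2bp, an outer mitochondrial membrane protein, had 0.28 ± 0.11 with overlapping groups. Of all 16 tiled genes, 3 were lower and 1 higher without overlap, and 11 had a change above 0 and 5 below.

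**Figure D2:**
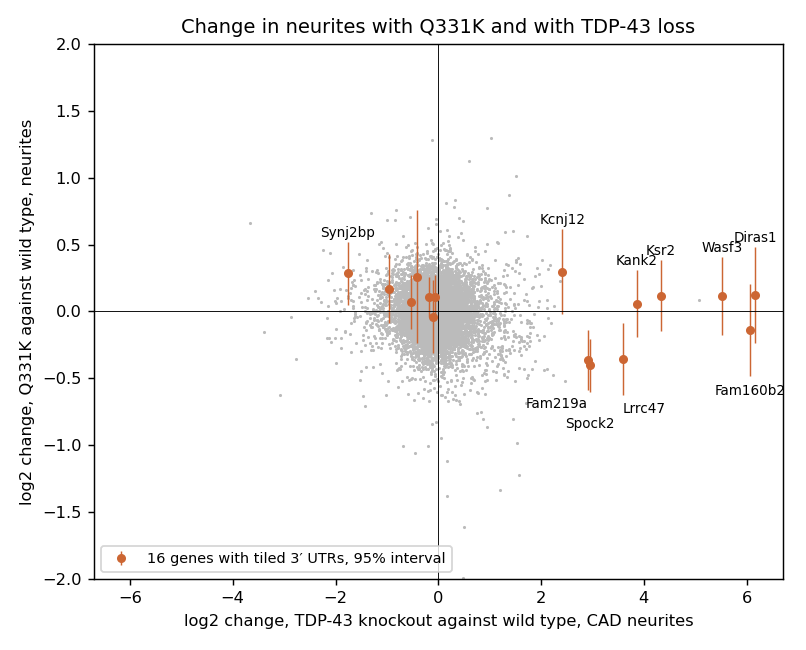
Log2 change in neurites with Q331K (vertical axis) against log2 change in neurites after TDP-43 knockout (horizontal axis, wider scale), for 10473 genes with a mean above 5 CPM in the transgene neurites; orange points are the 16 tiled genes, with 95% intervals for the Q331K change. Diras1, Fam160b2 and Wasf3 lie beyond 5 on the knockout axis and within 0.2 of 0 on the Q331K axis.

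GU-rich stretches of these 3′ UTRs are shown because they are the kind of sequence that TDP-43 binds and occur both in targets whose groups overlapped and in targets that were lower with Q331K. Each is the 30-base window of the longest annotated 3′ UTR that holds the most starts of 5-base GU-rich motifs, read on the RNA strand alone and written as DNA, with motif bases in capitals. The motifs searched were GTGTG and the same repeat shifted by a base, TGTGT, together with a version that has an A inside the repeat, GTATG. They overlap each other, and a match does not show binding. Of 12364 tested genes with a 3′ UTR of at least 50 bases, 29.0% held a 30-base window with 4 or more starts, the count in Wasf3 and Lrrc47, 6.18% one with 12 or more, the count in Diras1 and Ksr2, and 3.95% one with 19 or more, the count in Fam219a. Sequences and positions are from GENCODE vM21 on GRCm38. The windows lie at chr10:81020258-81020287 (minus strand) for Diras1, chr5:117766488-117766517 (plus) for Ksr2, chr5:146471798-146471827 (plus) for Wasf3, chr4:41519200-41519229 (minus) for Fam219a and chr4:154019888-154019917 (plus) for Lrrc47.
Diras1: GTGTGTGTGTGTGaagggggagaGTGTGTG
Ksr2: gatgggttacatggGTGTGTGTGTGTGTGT
Wasf3: cagccgcccacatcgcctgctaTGTGTGTG
Fam219a: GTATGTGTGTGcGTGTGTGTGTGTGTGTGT
Lrrc47: agGTGTGgGTGTGctgtaggtgtcTGTGTG

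Over the whole 3′ UTR the density of motif starts was 25.1 per kb in Diras1, 5.51 in Ksr2, 5.25 in Wasf3, 28.6 in Fam219a and 31.2 in Lrrc47. Across all tested genes with an annotated 3′ UTR of at least 50 bases, the densest class had the lowest median in Q331K neurites and the highest in knockout neurites. For the 372 genes with at least 20 motif starts per kb the median log2 change with Q331K was -0.06 and 36.6% of genes were above 0, where 47.8% of all tested genes were. Groups did not overlap for 12.9% of these genes in the downward direction and for 2.15% in the upward direction, beside 6.83% and 6.99% of all tested genes. The median of the same class was -0.04 in Q331K soma and 0.22 in knockout neurites. The 2319 genes with under 2 starts per kb also had a median below 0 in Q331K neurites, -0.03, so the medians did not follow the density in order. The length of the 3′ UTR moved with the change as well, from a median of -0.05 in the shortest of 5 equal classes of 3′ UTR to 0.03 in the longest, and the part of length in the medians by motif density was not tested.

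**Figure D3:**
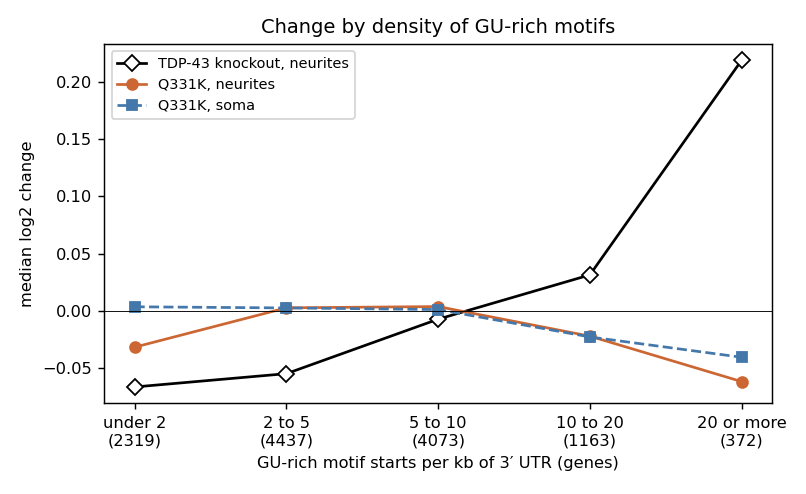
Median log2 change (vertical axis) of genes grouped by the number of GU-rich motif starts per kb of their longest 3′ UTR (horizontal axis, genes per class in parentheses). Knockout medians climb from -0.07 to 0.22, while Q331K medians stay between -0.06 and 0.00 in both compartments.

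Genes called after knockout, taken whatever the size of their change, had medians near that of all genes with Q331K. The 1908 genes called higher in knockout neurites and tested here had a median of -0.01 in Q331K neurites, and the 2314 called lower had a median of 0.00. For the 406 genes that were higher by over 1 on the log2 scale after knockout, the median was lower, at -0.08, and 39.7% were above 0. Over all tested genes these values were -0.01 and 47.8%. Across 10473 genes, which are not independent replicates, Spearman's rho between the Q331K and knockout changes in neurites was -0.018. RNAs with a cryptic exon that TDP-43 is known to repress had a median of 0.00 over 7 genes.

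Messages for proteins that fold and process cargo in the ER lay mostly below 0 in Q331K neurites, although none passed in edgeR. Among the 45 gene lists this one had the largest share of genes with an unadjusted p under 0.05 in the downward direction, 66.7%. In bulk fractions, fewer neurites of a kind and less RNA per neurite cannot be told apart. ER chaperones such as Hspa5, known as BiP, bind newly made secretory proteins, protein disulfide isomerases of the Pdia family form their disulfide bonds, and both are induced by the unfolded protein response. Of the 18 ER chaperone and stress genes, all tested, 0 passed an FDR of 0.01 in edgeR, 12 were lower at an unadjusted p under 0.05 and 0 higher, where 4.9% of all genes were lower. Their median log2 change was -0.21 in neurites and -0.06 in soma, beside -0.01 and 0.00 over all tested genes. The 3 libraries of each line did not overlap for 11 of the 18, all lower, beside 6.83% of all genes.

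Manf, an ER-resident protein secreted under stress, stood at 63.7, 62.7 and 66.6 CPM in wild-type neurites and at 53.05, 51.3 and 46.4 CPM in Q331K neurites. Dnajb11, a co-chaperone of BiP, stood at 95.8, 88.7 and 96.6 CPM against 68.5, 74.0 and 79.4 CPM. Pdia6 stood at 190.3, 178 and 190.1 CPM against 157, 157 and 146 CPM. Each of the 3 was lower in every Q331K library than in any wild-type library.

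The log2 changes were -0.36 ± 0.07 for Manf, -0.34 ± 0.07 for Dnajb11 and -0.28 ± 0.07 for Pdia6, with adjusted p-values of 0.193, 0.193 and 0.211 in edgeR and of 0.020, 0.013 and 0.013 in DESeq2. Dnajc3 and Pdia4 had changes of -0.31 ± 0.07 and -0.29 ± 0.07. BiP itself, encoded by Hspa5, stood at 604, 555 and 645 CPM against 508, 527 and 532 CPM, a change of -0.20 ± 0.08. The transcription factor Xbp1, which drives many of these genes, stood at 0.03 ± 0.08 and Edem1 at 0.03 ± 0.10.

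**Figure D4:**
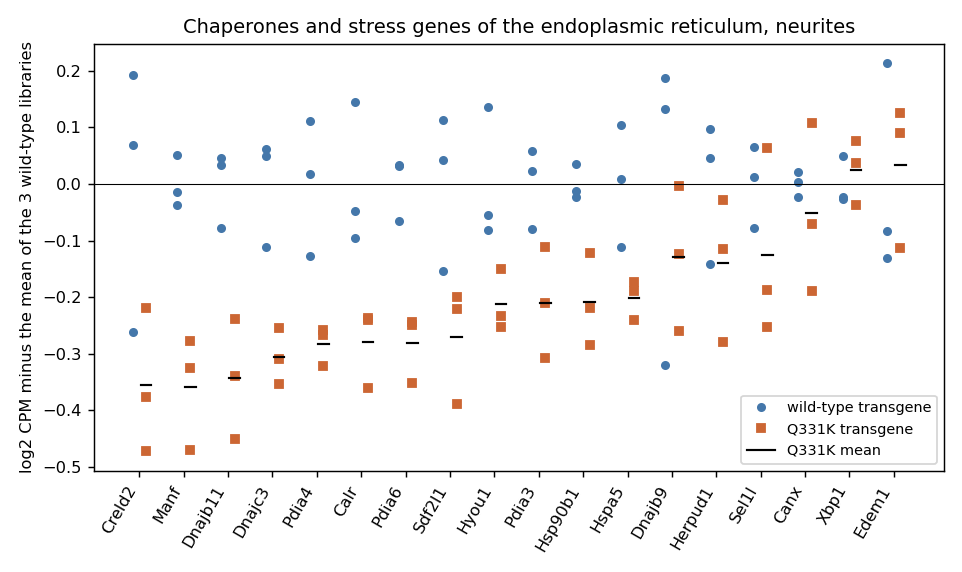
Level of each of the 18 ER chaperone and stress genes in the 6 neurite libraries, as log2 CPM minus the mean of the 3 wild-type libraries; circles are wild-type libraries, squares Q331K libraries and bars the Q331K means. All 3 squares lie below all 3 circles for 11 genes, while the bars of Xbp1 and Edem1 lie close to 0.

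The machinery that moves and glycosylates proteins at the ER membrane lay mostly below 0 as well, in a list assembled after the values were seen. Of its 25 genes, which encode subunits of the translocon, the signal peptidase, the signal recognition particle receptor and the oligosaccharyltransferase, 24 were below 0 in neurites, where 52.2% of all genes were, with a median of -0.10 in neurites and 0.02 in soma. At an unadjusted p under 0.05, 7 were lower and 0 higher, beside 4.9% and 4.94% of all genes. The median was -0.19 without wild-type neurite library 3 and -0.15 without Q331K neurite library 3. Rpn1, a subunit of the oligosaccharyltransferase, stood at 113.1, 100.2 and 131.6 CPM against 88.3, 85.8 and 90.2 CPM without overlap. Its change was -0.38 ± 0.08, with an adjusted p of 0.193 in edgeR and 0.013 in DESeq2. Both subunits of the signal recognition particle receptor were lower, Srpr by -0.28 ± 0.07 and Srprb by -0.32 ± 0.09. The COPII coat, which carries the products onward, did not share this direction. Of 11 coat genes, a list also assembled afterwards, 9 were above 0, where 47.8% of all genes were. Sec23a stood at 136, 123.5 and 139 CPM against 158, 159.9 and 181 CPM.

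Lysosomal genes, whose products also enter the ER, and genes of MHC class I antigen presentation had medians below 0 in neurites and above 0 in soma. Of the 25 lysosomal genes 21 were below 0 in neurites, with a median of -0.14, whereas 22 were above 0 in soma, where 49.4% of all genes were, with a median of 0.09. In the test of the difference between compartments, 0 genes passed an FDR of 0.01 in edgeR and 9 of the 25 were lower in neurites relative to soma at an unadjusted p under 0.05, where 2.98% of all genes were. Ctsz, a lysosomal cathepsin, stood at 122.6, 127 and 115 CPM in wild-type neurites and at 99.5, 109 and 95.9 CPM with Q331K, a change of -0.26 ± 0.09 beside 0.12 in soma. Grn, the progranulin gene whose loss causes frontotemporal dementia, stood at 26.5, 32.7 and 27.3 CPM against 21.7, 22.2 and 25.7 CPM, a change of -0.31 ± 0.13. The groups did not overlap in either gene, and the adjusted p-values in edgeR were 0.356 and 0.444. Without Q331K neurite library 2, only 1 of the 25 lysosomal genes had an unadjusted p under 0.05 in neurites, beside 4 with all libraries, and without wild-type neurite library 3 there were 8.

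B2m, the light chain of MHC class I, stood at 137, 145 and 132 CPM against 114, 116 and 115 CPM, a change of -0.27 ± 0.08 in neurites and 0.07 in soma. Of the 9 MHC class I genes tested, among them the immunoproteasome subunits Psmb8, Psmb9 and Psmb10 of the cytosol, 8 were below 0 in neurites and 2 in soma. For the same test of compartments, 5 of 18 ER chaperone genes, 6 of 25 translocon and glycosylation genes and 3 of 9 MHC class I genes had an unadjusted p under 0.05 in the downward direction. RNAs retained in the nucleus, a sign of cell body material in a neurite fraction, summed to 293 to 448 CPM in wild-type neurites and to 279.8 to 375 CPM in Q331K neurites, so their ranges overlapped. Of the 6 such RNAs tested, 4 were below 0 in neurites, with a median of -0.12, and all 6 were above 0 in soma, with a median of 0.30. All 6 were lower in neurites relative to soma, with a median difference of -0.52, the same direction as the lysosomal and MHC class I lists, and 1 of them had an unadjusted p under 0.05. Their neurite median ran from -0.42 without Q331K library 3 to 0.023 without wild-type library 3. Tested genes were also placed in 5 equal classes by their neurite enrichment in the conditional knockout line before TDP-43 loss. The median difference between compartments was -0.04 in the class with the strongest soma enrichment, then -0.01, 0.00 and 0.03, and 0.03 in the class with the strongest neurite enrichment. Genes enriched in soma lay on the same side of 0 as the ER, lysosomal and MHC class I lists. The median differences of these lists were -0.17 for ER chaperones, -0.15 for translocon and glycosylation genes, -0.23 for lysosomal genes and -0.28 for MHC class I genes. In the conditional line, their median log2 neurite enrichment before TDP-43 loss was 0.08, 0.19, -0.07 and 0.11 in the same order, beside 0.07 over all tested genes. In the wild-type transgene line, the ER chaperone genes summed to 3711 to 4476 CPM in neurites and 7281 to 7747 CPM in soma. The lysosomal genes summed to 2968 to 3136 CPM and 5022 to 5699 CPM. These sums are scaled by the library total alone, unlike the enrichment values. The strongest soma class ended at -0.392 on that scale. The medians of the strongest soma class were -0.01 in neurites and 0.03 in soma. The part of cell body RNA in the values of these lists was not tested.

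**Figure D5:**
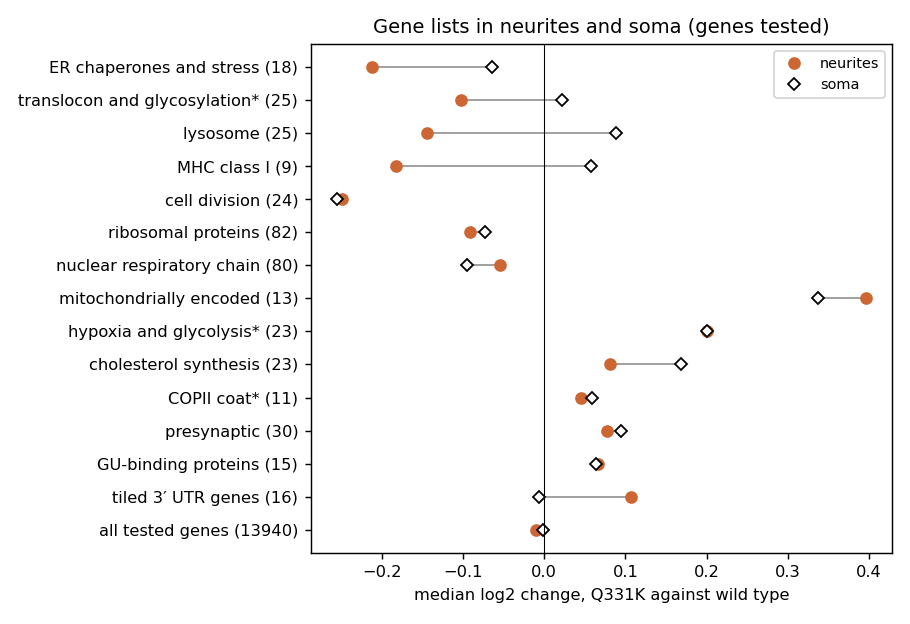
Median log2 change of gene lists, Q331K against wild type, in neurites (filled circles) and soma (open diamonds), with the number of genes tested in parentheses; asterisks mark lists assembled after the values were seen. The 4 lists at the top, of ER, lysosomal and MHC class I genes, have lower medians in neurites than in soma, while cell division genes are equally low in both and mitochondrially encoded genes are high in both.

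Genes of cell division lay below 0 with Q331K in both compartments, although 0 of 24 passed an FDR of 0.01 in edgeR. All 24 genes tested were below 0 in neurites and 23 in soma (50.6% of all genes), with medians of -0.25 in each. At an unadjusted p under 0.05, 6 were lower in neurites (4.9% of all genes) and 6 in soma (3.56% of all genes). Birc5, or survivin, stood at 15.1, 14.6 and 19.2 CPM in wild-type neurites and at 10.9, 10.2 and 9.25 CPM with Q331K, a change of -0.69 ± 0.15 with an adjusted p of 0.193 in edgeR. Mki67, the proliferation marker Ki-67, stood at 144, 133 and 229 CPM against 99.7, 132 and 121 CPM. Wild-type library 3 was the highest for both genes, and without it the median over the 24 genes was -0.10 and 2 genes had an unadjusted p under 0.05. Without Q331K library 3 there were 3 and without wild-type library 2 there were 11. E2f1, a transcription factor that drives entry into S phase, is not among the 24 genes and was picked after its values were seen. It stood at 19.1, 19.8 and 18.4 CPM against 13.7, 13.8 and 10.6 CPM. The separation of this 1 gene did not rest on wild-type library 3, which says nothing about the list. The list of 24 genes had a median of 1.31 in knockout neurites, with 22 of 24 called higher, where 11.8% of all genes tested there were. Knockout neurite medians were -0.16 for ER chaperones, -0.06 for translocon and glycosylation genes, -0.23 for lysosomal genes and -0.30 for MHC class I genes, lists also below 0 with Q331K. They were -0.22 for mitochondrially encoded, -0.32 for hypoxia and glycolysis and -0.12 for cholesterol synthesis genes, lists above 0 with Q331K. The median over all tested genes was -0.02.

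RNAs made inside mitochondria lay mostly above 0 with Q331K in both compartments, and 0 passed an FDR of 0.01 in edgeR. They made up 11.6% to 13.8% of the counts in wild-type neurites and 14.4% to 16.9% in Q331K neurites, without overlap. Of the 13 messages 11 were above 0, with a median of 0.40 in neurites and 0.34 in soma, and 5 had an unadjusted p under 0.05 in the upward direction, where 4.94% of all genes did. mt-Co2, a subunit of cytochrome c oxidase, stood at 23863, 25580 and 21569 CPM against 27345, 28980 and 37614 CPM, a change of 0.40 ± 0.14 with an adjusted p of 0.357 in edgeR. Q331K library 3 was the highest of the 6, and without it the median was 0.19 and no gene of the 13 had an unadjusted p under 0.05. Without wild-type library 3 the count was 2 and without wild-type library 1 it was 3. Nuclear genes of the respiratory chain had a median of -0.05 over 80 genes. The 82 ribosomal protein genes had a median of -0.09, which was 0.05 without wild-type library 2, so their direction rested on 1 library.

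Several genes of hypoxia and glycolysis were higher with Q331K, in a list assembled after the values were seen. Of 23 such genes 20 were above 0, with a median of 0.20 in neurites and in soma, and 9 had an unadjusted p under 0.05 in neurites, all higher, where 4.94% of all genes were. Pdk1, a kinase that inhibits pyruvate dehydrogenase, stood at 48.6, 64.7 and 48.0 CPM against 82.8, 73.4 and 77.1 CPM, a change of 0.53 ± 0.12. Ldha, lactate dehydrogenase, stood at 748, 827 and 698 CPM against 989, 897 and 947 CPM, a change of 0.32 ± 0.09. In both, every Q331K library was above every wild-type library, and the adjusted p-values were 0.193 and 0.282 in edgeR and 0.020 and 0.036 in DESeq2. The counts at an unadjusted p under 0.05 ran from 6 to 12 when 1 neurite library was left out, the lowest without wild-type library 1 or 3, and the median from 0.14 without wild-type library 1 to 0.34 without wild-type library 2.

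Cholesterol synthesis genes were higher in part. Of 23 tested, 5 had an unadjusted p under 0.05 in neurites and 8 in soma, all higher, beside 4.94% and 3.58% of all genes. The neurite count was 3 without wild-type neurite library 3 and 7 without wild-type neurite library 2, and the median of 0.08 was 0.047 without Q331K neurite library 2 and 0.051 without wild-type neurite library 3. Hmgcs1, which makes the precursor of mevalonate, stood at 427, 409 and 415 CPM in wild-type neurites and at 489, 489 and 579 CPM with Q331K, a change of 0.32 ± 0.09 with an adjusted p of 0.289 in edgeR. Lss, Stard4, Idi1 and Fdft1 were the other 4, with changes of 0.22 to 0.25. Srebf2, the transcription factor that controls the pathway, had a change of -0.11 ± 0.08 in neurites and of 0.14 in soma.

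Presynaptic and transport genes gave smaller differences. Of 30 presynaptic genes 6 were higher and 0 lower at an unadjusted p under 0.05, beside 4.94% and 4.9% of all genes, with a median of 0.08 that was 0.0098 without Q331K library 3 and 0.02 without wild-type library 1. Snap25, a SNARE protein of vesicle fusion, stood at 231, 221 and 232 CPM against 264, 252 and 286 CPM, a change of 0.23 ± 0.07. Erc1, an active zone scaffold, had a change of 0.27 ± 0.07 in neurites and -0.04 in soma. Of 41 kinesin genes 5 were higher and 0 lower, with a median of -0.04. Without wild-type library 2 there were 10 higher and 4 lower, with a median of 0.08, and without wild-type library 1 or 3 there were 2 higher, so the list gave no steady direction. The most abundant of the 5 was Kif5c at a mean of 7329 CPM against 9561 CPM, a change of 0.38 ± 0.15 with overlapping groups. RNAs that mark cell protrusions had a median of 0.01 over 8 genes, although Cyb5r3 stood at 971, 1489 and 1113 CPM against 1708, 1624 and 1698 CPM, a change of 0.49 ± 0.12 with an adjusted p of 0.193 in edgeR. With wild-type library 2 left out, Cyb5r3 was the 1 gene that passed an FDR of 0.01 in edgeR.

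Of 11 transcription factors of sympathoadrenal and catecholaminergic identity, 3 were higher at an unadjusted p under 0.05 in neurites (27.3%, beside 4.94% of all genes) and 1 lower, and 5 were higher in soma (beside 3.58%). The number of higher genes in neurites was 5 without Q331K library 1 and 2 without Q331K library 3, and 0 passed an FDR of 0.01 in edgeR. Isl1, a homeodomain factor of sympathetic and motor neurons, stood at 60.8, 54.6 and 56.9 CPM against 72.3, 70.3 and 80.6 CPM, a change of 0.37 ± 0.07 with an adjusted p of 0.160 in edgeR and 0.014 in DESeq2. Sox4 had a change of 0.30 ± 0.08. Gata2 was lower in every Q331K library, at -0.28 ± 0.10. Of 15 genes for proteins that bind GU- or U-rich RNA, 1 was higher at an unadjusted p under 0.05 (6.67%, near the 4.94% of all genes), Celf4, with a mean of 27.6 CPM against 36.0 CPM. Of 29 ALS and FTD genes tested, 1 was higher (4.94% of all genes) and 3 lower (4.9% of all genes) at an unadjusted p under 0.05, among them Taf15 at -0.24 ± 0.09, and the median of the list was 0.02.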

How the data were processed

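RNA-seq was measured in neurite and soma fractions of 2 CAD lines, with 3 libraries each. The labels do not state that the libraries come from separate cultures of independent lines, so p-values measure the spread between these libraries. Per the study's methods, the authors trimmed reads with cutadapt and quantified transcripts with salmon; their deposited files hold estimated counts, TPM and effective lengths per transcript. Estimated counts were summed to genes with GENCODE vM21 (GRCm38), rounded, and filtered with edgeR's default filter; TPM and effective length entered only the choice of the most abundant transcript and the length-scaled counts. The methods name another GENCODE version than the one used here. Libraries held 9783050 to 15870647 estimated counts, and at most 0.129% of counts were on transcripts without a gene. CPM values are scaled by TMM, except summed shares and marker levels, which are scaled by the library total alone. The labels and the methods differ on doxycycline, and the methods were followed.

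One edgeR (4.0.16) quasi-likelihood model with 4 groups covered the 12 libraries, with contrasts in neurites, in soma and between them at an FDR of 0.01. SE and 95% intervals come from that model. The knockout comparison used 12 libraries of the conditional line with the same settings. DESeq2 1.42.0, limma 3.58.1, other scalings and filters, and fits without each library were alternatives, and the fit was tested on simulated data. R 4.3.3 and pandas were used. Named genes were to be Tardbp, the 16 tiled genes and the 12 largest changes per direction past the FDR with at least 5 CPM and no overlap; none passed, and the others were chosen by lowest p or by list after their values were seen. The members and lists were chosen with earlier results of these data known, and 3 of the 45 lists were added after the fits; lists are described by counts and medians, without a test. The other 62 files of the series were not used here.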

Additional observations from a re-analysis of the deposited data

How the results depend on the processing

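The count of 0 genes called in neurites held in edgeR with size factors from DESeq2, upper-quartile scaling, length-scaled counts, a minimum of 10 counts in every library, the neurite libraries alone and an FDR of 0.05, and in limma voom, which was added after the data were seen. DESeq2 called 8 higher and 2 lower, and at an FDR of 0.05, added later, 28 and 19. A robust edgeR fit at an FDR of 0.05, also added later, called 3 higher (Gm3325, Ptgfr and Sec24d) and 1 lower (Apmap). With no filter on low counts edgeR called 46 higher and 57 lower in neurites, of which 39 had at least 5 CPM and no overlap, 51 and 90 in soma, and 31 and 22 for the difference between compartments; the cause was not tested. In soma DESeq2 at an FDR of 0.05 called 6 higher and 5 lower. Leaving out 1 library at a time gave 0 to 1 higher and 0 lower genes in neurites (1 without wild-type neurite library 2), 0 higher and 0 to 1 lower in soma, and 0 to 1 higher and 0 lower for the difference. The last 2 came without Q331K soma library 2. The knockout counts ran from 1550 to 2027 higher and from 1800 to 2386 lower.

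The replicate numbers did not clearly pair the lines, with correlations of deviations of 0.115, -0.021 and 0.122 in neurites. The fit with the replicate block called 0 genes, with 1531 at an unadjusted p under 0.05 beside 1372. Between compartments the correlations were 0.084, 0.081 and 0.169 in the wild-type line and 0.001, 0.08 and -0.066 in the Q331K line. For the difference between compartments, an edgeR fit with a term for the culture, by line and replicate number, called 0 genes at an FDR of 0.01. Its lowest adjusted p was 0.025 beside 0.463, with 746 genes at an unadjusted p under 0.05 beside 605. Soga3 turned from 0.11 to -0.086 with length-scaled counts. Without 1 library at a time, Lars2 ran from -0.035 to 0.42, Tardbp from -0.023 to 0.11, Wasf3 from -0.045 to 0.28, Tub from -0.029 to 0.18, Diras1 from -0.088 to 0.27, Kank2 from -0.024 to 0.11, Ksr2 from 0.023 to 0.21, Synj2bp from 0.15 to 0.36 and Ssc5d from -0.12 to 0.074. The median of the ER chaperone genes stayed between -0.26 and -0.20 under all 26 alternatives. Several of these changed only the threshold or left out a soma library, and could hardly move it. Without 1 library at a time, 9 to 14 of the 18 genes were lower at an unadjusted p under 0.05, beside 12 with all libraries. The comparison rests on 1 line per transgene.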
